A study of Mus musculus with 19 samples.

Results

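The COUP-TF genes Nr2f1, Nr2f2 and Nr2f6 were examined in mouse embryos at E9.5 in which Chd7, the gene for a chromatin remodeller, had been deleted in the Mesp1 lineage. They are 3 of the 24421 gene rows of the 'HEART' count table and 3 of the 22769 gene symbols read from the 'SHF' table, and all 3 passed the filter on low counts. The set is the COUP-TF family by name, but it was chosen by earlier results of these same samples. The difference between genotypes is therefore described with its spread and is not tested here.

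COUP-TFs are orphan members of the nuclear receptor superfamily: DNA-binding proteins with 2 zinc fingers and a ligand-binding domain for which no physiological ligand is established. They bind pairs of a short half-site, alone or with a retinoid X receptor, and often repress transcription, and their genes respond to retinoic acid. In the mouse, COUP-TFII (Nr2f2) is needed for atrial development and for the identity of atrial muscle and of venous endothelium. COUP-TFI (Nr2f1) is best known from the nervous system and is an atrial factor in human cardiomyocytes grown from stem cells. EAR2 (Nr2f6) is the most divergent of the family and is best known from blood and immune cells.

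Control embryos carried Mesp1-Cre and cKO embryos carried Mesp1-Cre with floxed Chd7 on both chromosomes, so both groups carried the Cre and only the cKO group the floxed alleles. Mesp1-Cre acts in early mesoderm, from which much of the heart is formed, and cells of other origin in the dissected tissue keep Chd7. Each of 11 embryos was taken singly. The heart with its outflow tract ('HEART', 4 control and 4 cKO samples, poly(A)-selected mRNA) and the distal pharyngeal apparatus ('SHF', 5 control and 6 cKO samples, total RNA depleted of ribosomal RNA) were sequenced, and 8 embryos gave both. 'HEART' counts summed to 8640839 to 15030099 per sample and are given as CPM, the unit of counts scaled to library size, here with TMM factors. For 'SHF' the authors deposited a single value for each genotype in FPKM, a unit of fragments scaled to transcript length and library size, so the spread between 'SHF' samples and their depth are unknown and no 'SHF' value has a replicate check.

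In 'HEART', Chd7 itself had 230, 224, 231 and 242 CPM in control samples 1 to 4 and 35.8, 43.5, 42.7 and 20.36 CPM in cKO samples 1 to 4, so every sample matched its label. In bulk tissue, fewer cells of a type and less RNA per cell cannot be told apart. Muscle markers were plentiful in every 'HEART' sample: 8 cardiomyocyte genes together had 34967 to 38207 CPM in control and 33727 to 36210 CPM in cKO. Of these genes 1 fell, the Z-disc gene Actn2 (log2 fold change -0.27 ± 0.08, edgeR's quasi-likelihood test, Benjamini-Hochberg adjusted p = 0.0933), and its call was lost with RLE scaling (0.109) and without any 1 sample other than control 4 (0.102 to 0.236). In 'SHF' the median log2 ratio of the same 8 genes was -1.02, with 5 of the 8 past 1.5-fold lower in cKO. Xist, the noncoding RNA of X chromosome inactivation, had 61.4, 1.28, 0.162 and 0.495 CPM in control samples 1 to 4 and 34.6 to 86.3 CPM in cKO, so 3 of the 4 controls stood apart from the other samples. A difference in embryo sex, which Xist would follow, would thus nearly coincide with genotype in 'HEART'. The 'HEART' contrasts below do not separate sex from genotype, except where a Xist covariate is named. The same 8 embryos also went into the 'SHF' values, so the 'SHF' ratios do not separate sex from genotype either.

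The family resemblance is visible in the messenger RNA itself. The longest run of bases that the coding sequences of Nr2f1 and Nr2f2 had in common was 59 bases, in the part that encodes the first zinc finger of the DNA-binding domain. The same window of Nr2f6, placed by the 23 bases it shares with both, is set under them because this stretch is where short reads could be assigned to the wrong paralogue. Capitals mark the bases of Nr2f6 that differ from Nr2f1.
Nr2f1: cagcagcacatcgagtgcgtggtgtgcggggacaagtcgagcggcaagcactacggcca
Nr2f2: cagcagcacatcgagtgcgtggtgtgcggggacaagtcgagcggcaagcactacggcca
Nr2f6: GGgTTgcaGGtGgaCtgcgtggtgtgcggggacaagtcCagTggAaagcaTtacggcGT

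Positions in the GENCODE transcripts, counted from 1 at the 5′ end, were 1416 to 1474 of Nr2f1-201, 484 to 542 of Nr2f2-201 and 843 to 901 of Nr2f6-201. Nr2f6 differed from Nr2f1 at 14 of the 59 bases (76.3% identical). The 'HEART' reads were 43 bases long in pairs. Of 5090 different 43-base words in the Nr2f1 transcripts, 17 (0.334%) also occurred in Nr2f2, where they were 0.198% of 8575 words, and none was shared with Nr2f6. Single reads that fit both Nr2f1 and Nr2f2 exactly can come from these words alone.

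On GRCm38 the genes lie on different chromosomes, each on the minus strand. Nr2f1 (ENSMUSG00000069171) spans chr13:78188973-78199757, Nr2f2 (ENSMUSG00000030551) spans chr7:70351944-70366735 and Nr2f6 (ENSMUSG00000002393) spans chr8:71374123-71381960. A gene on the opposite strand overlaps each of them: A830082K12Rik overlaps Nr2f1, B130024G19Rik overlaps Nr2f2 and Ocel1 overlaps Nr2f6. Whether counting used strand could not be learned from the labels or methods, so reads of such pairs could not be separated by strand. RefSeq windows of 300 bases around the start sites (GRCm38.p6, 250 before and 50 after; 1 window for Nr2f2, 1 for Nr2f6 and both listed for Nr2f1) were searched on both strands for the nuclear receptor half-site AGGTCA. It was in none of the 4 windows and in 16.3% of 32851 windows of that length, and the 4 windows held 23, 4, 2 and 53 CpG pairs (both Nr2f1 windows, then Nr2f2 and Nr2f6) against a median of 7.

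Nr2f1 was the member with the large difference. Its 'HEART' level was 35.9, 31.0, 27.6 and 22.9 CPM in control samples 1 to 4 and 9.25, 9.91, 9.25 and 8.91 CPM in cKO samples 1 to 4. All 4 cKO samples lay below all 4 controls, and the cKO samples lay close together while the controls were spread. The raw counts behind these values were 277 to 556 in control and 79 to 121 in cKO. On average Nr2f1 was at 29.3 ± 5.52 CPM in control against 9.33 ± 0.418 CPM in cKO (SD, 4 samples a group), 3.15-fold lower in cKO, or -1.65 ± 0.14 (SE) on the log2 scale, and the cKO mean was 31.8% of the control mean. The coefficient of variation was 18.8% in control and 4.48% in cKO. The cKO value is below what counting noise alone gives at counts of 79 to 121. The closeness of the cKO samples is therefore not read as a trait of the genotype.

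Nr2f2 had no such difference. Its level was 86.1, 80.8, 81.5 and 63.3 CPM in control samples 1 to 4 and 85.4, 67.2, 84.7 and 84.1 CPM in cKO samples 1 to 4. One control and one cKO sample were low and the other samples lay together, so the genotypes overlapped. Nr2f2 averaged 77.9 ± 10.0 CPM in control against 80.4 ± 8.77 CPM in cKO (SD, 4 samples a group), and the log2 fold change was 0.04 ± 0.10 (SE, 95% interval -0.21 to 0.30).

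Nr2f6 likewise overlapped between the genotypes. It had 60.6, 54.2, 57.5 and 56.1 CPM in control samples 1 to 4 and 59.4, 56.2, 48.6 and 67.1 CPM in cKO samples 1 to 4. The lowest and the highest of the 8 values were both cKO samples. Nr2f6 averaged 57.1 ± 2.698 CPM in control against 57.8 ± 7.66 CPM in cKO (SD, 4 samples a group), and the log2 fold change was 0.02 ± 0.09 (SE, 95% interval -0.21 to 0.24).

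**Figure D1:**
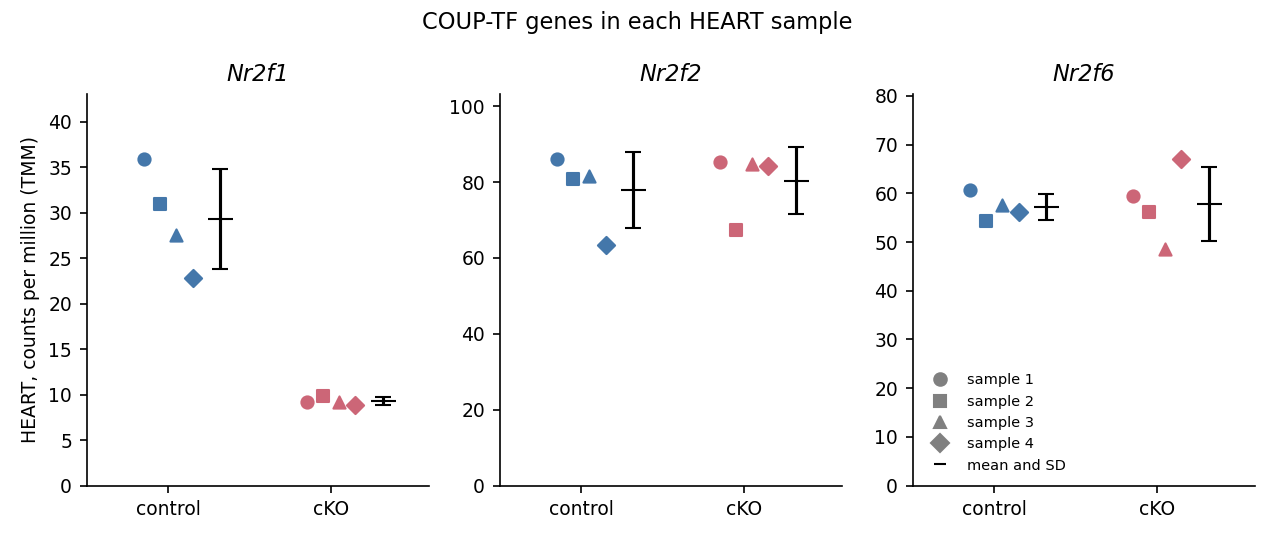
Level of Nr2f1, Nr2f2 and Nr2f6 in each 'HEART' sample, in CPM on linear axes that start at 0 and differ between panels; symbols are the 4 control and 4 cKO samples, black bars the mean and SD. The cKO samples of Nr2f1 sit at 8.91 to 9.91 CPM, under every control (22.9 to 35.9 CPM), whereas the 2 genotypes overlap for Nr2f2 and Nr2f6.

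Over all 12694 'HEART' genes tested, edgeR's quasi-likelihood test at a Benjamini-Hochberg adjusted p under 0.1 called 817 (6.44%), of which 371 (2.92%) had the lower level in cKO and 446 the higher one, and in 10.2% of genes the genotypes did not overlap. Scaled by total counts alone, 360 were higher and 478 lower. Nr2f1 was the 1 member of 3 called, as lower, and the 1 of 3 without overlap. The members were chosen on this same contrast, so nothing is read from that count.

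Nr2f1 was also read against Xist and the embryo codes. Control 1, the control sample whose Xist (61.4 CPM) lay in the cKO range, had the highest Nr2f1 of all samples, 3.63 times the highest cKO value. The lowest control, control 4, was still 2.31 times the highest cKO value. Embryo codes in the labels shared a prefix in 2 control and cKO pairs. The samples cKO 1 and cKO 2 also shared a prefix with each other, and no control had it. Within the 2 control and cKO pairs the log2 difference of Nr2f1 was -1.58 (control 3 and cKO 3) and -1.36 (control 4 and cKO 4), that of Nr2f2 was 0.06 and 0.41, and that of Nr2f6 was -0.24 and 0.26. What the prefix stands for is not given in the labels.

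The make-up of the family pool differed with Nr2f1. The 3 genes together summed to 164 ± 16.6 CPM in control against 148 ± 11.9 CPM in cKO (SD, 4 samples a group). Nr2f1 gave 17.7 ± 1.71% of that sum in control and 6.37 ± 0.80% in cKO. The log2 ratio of Nr2f1 to Nr2f2 within a sample was -1.42 ± 0.13 in control and -3.10 ± 0.23 in cKO, and that of Nr2f1 to Nr2f6 was -0.98 ± 0.25 and -2.62 ± 0.23. The ratio of Nr2f2 to Nr2f6 was 0.44 ± 0.18 in control and 0.48 ± 0.24 in cKO on the same scale, which is a gap smaller than the SD in either genotype.

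To set levels of different genes beside each other, CPM were divided by the kilobases of annotated exon. In control 'HEART', Nr2f6 was highest at 19.2 ± 0.904 CPM per kilobase, then Nr2f2 at 9.03 ± 1.16 and Nr2f1 at 5.76 ± 1.08 (SD, n = 4). The ranges of neighbours did not overlap (Nr2f1 4.49 to 7.06, Nr2f2 7.34 to 9.98 and Nr2f6 18.2 to 20.3 CPM per kilobase). The order was the same in each of the 8 samples. In cKO the levels were 19.4 ± 2.57, 9.32 ± 1.02 and 1.83 ± 0.0821 CPM per kilobase, and Nr2f2 was 5.07 times Nr2f1 where it had been 1.58 times in control.

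In 'SHF', where the authors' values are single numbers per genotype, the order was another. Nr2f2 had 38.6 FPKM in control and 39.8 FPKM in cKO. Nr2f1 stood beside it in control, at 36.3 FPKM, and had 29.4 FPKM in cKO. Nr2f6 was lowest, at 24.5 and 22.5 FPKM. With no replicate values, the gap between Nr2f2 and Nr2f1 (1.06-fold in control, 1.35-fold in cKO) cannot be set against a spread. The 'SHF' and 'HEART' libraries differ in RNA selection, unit and gene models, so tissue and library type cannot be told apart in this change of order.

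The 'SHF' log2 ratios of cKO to control were -0.30 for Nr2f1 (1.23-fold lower), 0.04 for Nr2f2 and -0.12 for Nr2f6. Of 11030 genes with a mean of at least 1 FPKM, 216 (1.96%) were past 1.5-fold in either direction, and none of the 3 members was. A ratio lower than that of Nr2f1 was found for 4.19% of genes, lower than that of Nr2f6 for 14.1% and lower than that of Nr2f2 for 73.1%. Chd7 itself had 28.2 FPKM in control and 18.9 FPKM in cKO. The dissection holds cells outside the Mesp1 lineage, and the share of each gene's RNA that came from them was not measured. Whether the Nr2f1 difference itself differs between 'HEART' and 'SHF' was not tested, since 'SHF' has no values per sample.

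The deposited 'SHF' loci of Nr2f1 and Nr2f2 reach past the annotated genes. The Nr2f1 locus spans 49.3 kilobases where the annotated gene spans 10.8, and overlaps A830082K12Rik. The Nr2f2 locus spans 60.2 kilobases against 14.8, and overlaps B130024G19Rik and Gm28258. The Nr2f6 locus spans 7.85 kilobases against 7.84, and Ocel1 overlaps it as it does the gene. The 'SHF' values of the members therefore may include reads of those genes.

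**Figure D2:**
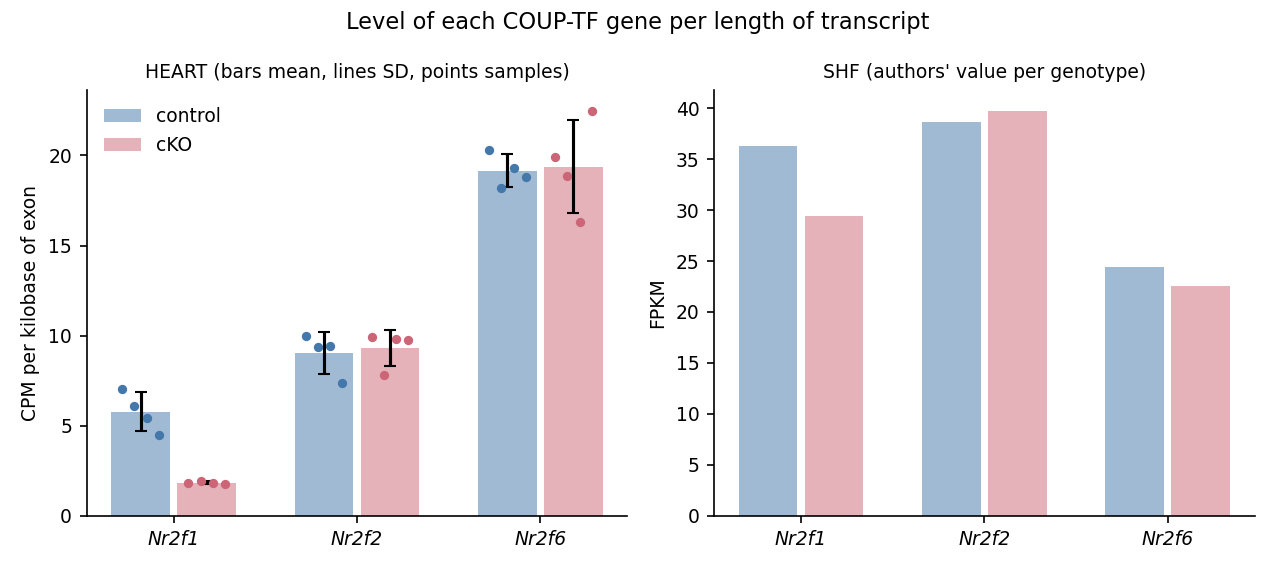
Level of each COUP-TF gene per length, in CPM per kilobase of exon for 'HEART' (bars are means, lines SD, points the 4 samples of each genotype) and in FPKM for 'SHF' (1 authors' value per genotype, no error available), both axes from 0. Nr2f6 is highest in 'HEART' (19.2 CPM per kilobase in control) and lowest in 'SHF' (24.5 FPKM in control), and the units of the 2 panels cannot be compared directly.

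Genes around the members were read in 'HEART' with the same fit (edgeR's quasi-likelihood test, Benjamini-Hochberg adjusted over all genes). A830082K12Rik, the antisense transcript that overlaps the 5′ part of Nr2f1, had 1.15 ± 0.413 CPM in control and 0.491 ± 0.384 CPM in cKO, a log2 fold change of -1.30 ± 0.58 that did not pass (adjusted p = 0.277). Fam172a, the nearest expressed gene on one side of Nr2f1 at 22738 bases, had 34.03 and 34.6 CPM (0.02 ± 0.09). Arrdc3, the nearest on the other side but 2683627 bases away, had a log2 fold change of 0.11 ± 0.11. None of the tested neighbours of Nr2f2 (Arrdc4 and Rgma) or of Nr2f6 (Ocel1, Use1 and Ushbp1) was called, with log2 fold changes from -0.34 to 0.55, and B130024G19Rik was under the count filter at a mean of 0.207 CPM. Arrdc4 and Rgma lay far from Nr2f2, at 1602703 and 3008774 bases.

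The rest of the nuclear receptor superfamily was read in the same 'HEART' fit. Of 46 other receptor genes 28 passed the count filter, and 4 fell and 1 rose (17.9%, against 6.44% of all genes). Without control 2 or without cKO 2, 2 fell. Their median log2 fold change was -0.10, against -0.01 for all genes, and 8 of the 28 were above 0. Of the 18 that did not pass the filter, Nr1i2, Nr1i3, Nr2e3 and Nr5a1 had no count in any sample.

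The receptors that fell included both retinoid classes. Rxrg, a retinoid X receptor of the kind that pairs with many nuclear receptors, COUP-TFs among them, had 3.56, 4.44, 2.75 and 3.55 CPM in control samples 1 to 4 and 1.25, 1.64, 0.585 and 1.08 CPM in cKO samples 1 to 4. No cKO value reached the lowest control, and the log2 fold change was -1.61 ± 0.29 (SE, edgeR's quasi-likelihood test, Benjamini-Hochberg adjusted p = 0.00743). The much more abundant Rxra (64.4 and 62.5 CPM) and Rxrb (32.6 and 31.0 CPM) had log2 fold changes of -0.04 ± 0.09 and -0.07 ± 0.08 and did not pass. Rarb, a retinoic acid receptor whose own gene is induced by retinoic acid, was 20.3 ± 3.19 CPM in control and 13.7 ± 0.968 CPM in cKO, again with no overlap (-0.56 ± 0.12, edgeR adjusted p = 0.0209). Rara (0.07 ± 0.10) and Rarg (-0.76 ± 0.26, edgeR adjusted p = 0.142) did not pass.

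Esr1, the oestrogen receptor alpha gene, was -1.24 ± 0.32 on the log2 scale (edgeR adjusted p = 0.044), and Ppara, a regulator of fatty acid oxidation, was -1.49 ± 0.38 (edgeR adjusted p = 0.0465). Both were low, at 3.14 and 1.46 CPM in control. The call of Esr1 was lost without control 2, control 3, cKO 1 or cKO 2 (adjusted p = 0.11 to 0.129), and that of Ppara without control 1, control 2 or cKO 2 (0.104 to 0.171). Rora, a circadian and developmental receptor, was the 1 that rose (7.64 ± 2.02 to 14.4 ± 5.81 CPM, log2 fold change 0.92 ± 0.26, edgeR adjusted p = 0.0792), and it is named after its value was seen. Its genotypes overlapped, and the call was lost without control 1, control 2, cKO 1, cKO 2 or cKO 3 (adjusted p = 0.133 to 0.251), with limma-voom (0.122), with the replicate block (0.1002) and with a random block for the prefix of the embryo codes (0.167). The testicular receptor genes Nr2c1 and Nr2c2, relatives of the COUP-TFs in the NR2 subfamily, had log2 fold changes of 0.19 ± 0.09 and -0.01 ± 0.12 and did not pass.

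In 'SHF' 17 of the 46 receptors had a mean of at least 1 FPKM and none was past 1.5-fold, with a median log2 ratio of -0.01. Rxrg had 1.02 FPKM in control and 1.11 FPKM in cKO there, and Rarb had 10.9 and 13.32 FPKM. These 2 ratios point up where those in 'HEART' point down, and the difference between dissections was not tested.

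**Figure D3:**
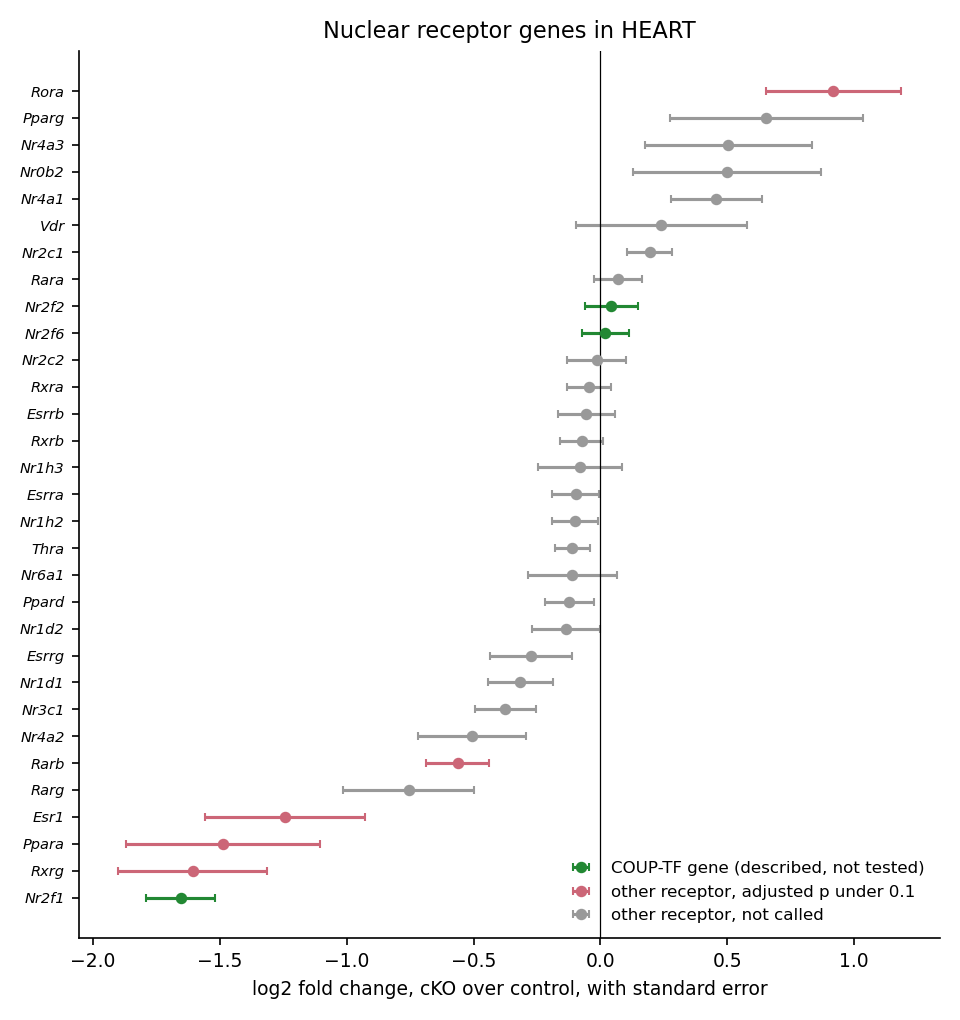
Log2 fold change of cKO over control in 'HEART' with its standard error for the 28 other nuclear receptor genes that passed the count filter and the 3 COUP-TF genes (green, described without a test). Nr2f1 (-1.65) and Rxrg (-1.61) lie lowest, Nr2f2 and Nr2f6 lie at 0.04 and 0.02, and red marks the 5 other receptors with an adjusted p under 0.1.

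Among 10 genes for proteins that work with COUP-TFs, 1 fell in 'HEART' and the median log2 fold change was 0.004. That gene was Zfpm2, which encodes the cofactor FOG2, known to bind both GATA4 and COUP-TFII and needed for coronary vessels and valves in the mouse. It was 30.5 ± 4.07 CPM in control and 16.9 ± 0.725 CPM in cKO with no overlap (log2 fold change -0.86 ± 0.11, edgeR adjusted p = 0.00068). Its relative Zfpm1 (FOG1) had 143 and 149 CPM (0.06 ± 0.08). The corepressor gene Ncor1, the coactivator genes Ncoa1 to Ncoa3, Bcl11a and Bcl11b, known to bind COUP-TFs, and Sqstm1 did not pass, with log2 fold changes from -0.41 to 0.09. In 'SHF' none of the 9 measured cofactors was past 1.5-fold, and Zfpm2 had 1.28 and 0.966 FPKM.

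Retinoic acid is the known upstream signal of COUP-TF genes, and 12 of 13 genes for its synthesis, transport and breakdown were tested in 'HEART'. One rose and none fell, and without control 4 the count that rose was 3. Crabp2, which carries retinoic acid to its nuclear receptors, was 25.97 ± 5.46 CPM in control and 42.3 ± 5.45 CPM in cKO with no overlap (log2 fold change 0.70 ± 0.14, edgeR adjusted p = 0.0123). The median of the list was 0.37 with 9 of 12 above 0, and the summed level was 61.7 to 99.1 CPM in control and 95.5 to 119 CPM in cKO. The synthesis gene Aldh1a2 had 4.63 ± 1.79 and 6.66 ± 1.82 CPM and did not pass (0.51 ± 0.26, edgeR adjusted p = 0.358).

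In 'SHF', Aldh1a2 stood at 4.85 FPKM in control and 15.7 FPKM in cKO, 3.25-fold higher, and Rbp4, the gene for the blood carrier of retinol, at 4.36 and 1.61 FPKM. Those were the 2 of 9 measured retinoic acid genes past 1.5-fold. The breakdown enzyme gene Cyp26b1 had 22.7 and 16.1 FPKM. Aldh1a2 is also on the list of septum transversum and epicardium markers. Of 7 measured there, 2 were past 1.5-fold higher in 'SHF' and none lower, with a median log2 ratio of 0.27. These were Aldh1a2 and Wt1 (0.902 FPKM in control and 1.79 FPKM in cKO). The part of that tissue in the Aldh1a2 value was not tested.

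COUP-TFII is known to uphold atrial identity in the mouse, and a list of atrial genes did not move together in 'HEART'. The list was written for this reading and is not a measured set of COUP-TFII targets. It also holds Myl7, which is among the cardiomyocyte markers too. Of 12 tested 3 fell and none rose, with a median log2 fold change of -0.09, and 1 rose without control 2 or without cKO 4. Kcnj3, which encodes an atrial potassium channel subunit (GIRK1), had a mean of 10.9 ± 3.53 CPM in control and 0.813 ± 0.785 CPM in cKO (log2 fold change -3.88 ± 0.41, edgeR adjusted p = 0.000281). Its partner subunit gene Kcnj5 had 212 and 195 CPM and did not pass (-0.12 ± 0.08). Kcna5, an atrial potassium channel gene, fell by 0.36 ± 0.08 on the log2 scale (edgeR adjusted p = 0.0233), and Cav1, for the caveolar coat protein caveolin, by 0.87 ± 0.19 (edgeR adjusted p = 0.0225), the latter with overlapping genotypes. The atrial myosin light chain genes Myl7 (3410 and 3339 CPM) and Myl4 (2432 and 2494 CPM), Nppa (315 and 452 CPM) and Tbx5 (157 and 149 CPM) did not pass.

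COUP-TFII is known to hold down ventricular genes in mouse atrial muscle. Of 10 ventricular genes tested in 'HEART' none rose and 1 fell, with a median log2 fold change of -0.10, and 2 fell with DESeq2, without control 3 or without control 4. This list too was written for this reading and is not a measured set of COUP-TFII targets. Pln, for the calcium pump inhibitor phospholamban, was 87.9 ± 34.2 CPM in control and 36.03 ± 14.0 CPM in cKO (-1.31 ± 0.27, edgeR adjusted p = 0.0164), with overlapping genotypes. Irx4 (99.1 and 97.1 CPM), Hey2 (64.7 and 61.7 CPM) and Myl2 (1972 and 1756 CPM) did not pass. In 'SHF' the atrial list had 3 of 7 genes past 1.5-fold lower and 1 higher (median -0.38) and the ventricular list 5 of 8 lower and none higher (median -1.05), beside the cardiomyocyte markers' median of -1.02 there. Myl7 had 73.1 and 38.8 FPKM and Myl3 had 5.61 and 0.980 FPKM, whereas Tbx5 had 1.51 and 4.05 FPKM.

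In endothelium COUP-TFII is known for venous identity and for holding Notch signalling down. None of 7 venous and lymphatic genes passed in 'HEART' (median 0.03), among them Ephb4, the ephrin receptor gene of veins (137 and 142 CPM), and Prox1, the lymphatic regulator that COUP-TFII is known to act with (51.4 and 52.6 CPM). Of 13 arterial and Notch genes 2 rose and none fell (median 0.15). Nrp1, a receptor of arterial endothelium and other cells, was 291 ± 15.1 and 346 ± 19.1 CPM (0.25 ± 0.07, edgeR adjusted p = 0.049), and Dll4, a Notch ligand gene, was 15.1 ± 0.77 and 21.4 ± 5.04 CPM (0.50 ± 0.15, edgeR adjusted p = 0.0814). Both calls were lost when single samples were left out: Nrp1 without control 1, control 2, control 3, cKO 1 or cKO 3 (adjusted p = 0.113 to 0.157), and Dll4 without any 1 of the 4 controls, cKO 2 or cKO 4 (0.107 to 0.213). The call of Dll4 was also lost with limma-voom and with total counts (both 0.104). The 8 general endothelial markers, none of them called, had a median log2 fold change of 0.20 with 7 of 8 above 0, and their part in the arterial values was not tested. In 'SHF' none of 6 venous genes and 1 of 11 arterial genes (Sox17, 1.91 and 1.17 FPKM) was past 1.5-fold.

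**Figure D4:**
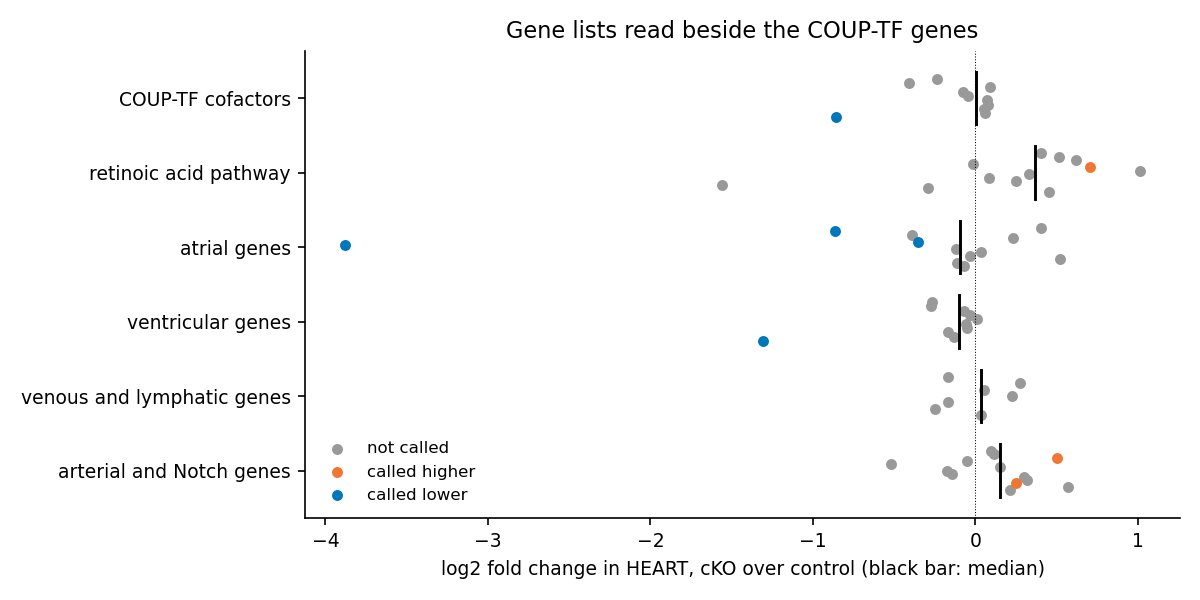
Log2 fold change of cKO over control in 'HEART' for each tested gene of the lists named beside the axis; black bars are medians, blue and orange points genes with an adjusted p under 0.1 that were lower and higher. The medians lie between -0.10 (ventricular) and 0.37 (retinoic acid), and Kcnj3 at -3.88 is the point farthest from 0.

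Markers of other cell types that a heart dissection can carry were read beside Nr2f1. Of 10 genes of pharyngeal and limb mesenchyme, 3 fell in 'HEART' and 1 rose, and their summed level was 205 to 259 CPM in control and 225 to 345 CPM in cKO. The median log2 fold change of the list was -0.32, with 3 of the 10 above 0. The 3 that fell were transcription factor genes: Prrx1 (-1.72 ± 0.26), Alx1 (-1.60 ± 0.29) and Twist1 (-0.91 ± 0.15), with edgeR adjusted p of 0.00224, 0.00721 and 0.00359. The 1 that rose was the growth factor receptor gene Pdgfra (0.98 ± 0.19, edgeR adjusted p = 0.0117), and 2 rose without control 2. Pdgfra had 66.8 CPM in control and 132 CPM in cKO, and was the largest single part of the sum in every cKO sample. Control 4 had the highest Prrx1 of all samples (19.2 CPM, against 8.73 to 10.5 CPM in the other controls) and the lowest Nr2f1 of the controls. The other 2 genes that fell did not share this order. Twist1, like Nr2f1, was lowest among the controls in control 4 (13.4 CPM). Alx1, like Nr2f1, was highest in control 1 (3.62 CPM, against 3.55 CPM in control 4). The summed levels of endothelial markers (857 to 1171 CPM in control, 931 to 1182 CPM in cKO) and of septum transversum and epicardium (422 to 540 and 495 to 521 CPM) overlapped between genotypes, and none of the 8 genes of either list passed, but 3 endothelial genes were called higher without control 2 and 1 without cKO 3.

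The 9 neural crest markers summed to 69.2 to 98.1 CPM in control and 62.8 to 81.0 CPM in cKO, nearly all of it from Ets1 and Crabp1, while the defining genes Sox10, Tfap2a and Tfap2b were at most 2.39 CPM in any sample and Foxd3 had no count. The 8 neural markers summed to 5.28 to 22.5 and 5.02 to 7.22 CPM. Of these 3 passed the count filter, all with log2 fold changes below 0 (median -0.69), and none was called, but 1 was called lower without control 4. Pharyngeal endoderm and epithelium summed to 246 to 502 and 501 to 563 CPM, with Krt19 higher in cKO (1.17 ± 0.15, edgeR adjusted p = 0.000892) and the other 4 tested of the 9 not called. Nearly all of that sum came from the keratin genes Krt8, Krt18 and Krt19. The other genes of the list were at most 9.66 CPM in any sample. Among them Cdh1 (-1.75 ± 0.96) and Epcam (0.72 ± 0.85) pointed opposite ways, so the sum is not a measure of endoderm. Control 4 stood apart there, with 208 CPM of Krt8 and 137 CPM of Krt18 against 97.1 to 101 and 62.4 to 64.6 CPM in the other controls, and without it 3 of the list were called higher. Erythroid markers summed to 4330 to 12619 and 1206 to 5638 CPM, and none of the 7 tested passed. The part of any of these cells in the Nr2f1 difference was not tested.

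Genes whose profile over the 8 'HEART' samples was closest to each member were sought among 10177 other genes with a mean of at least 5 CPM, by the root mean square (RMS) difference of their log2 values from their own means. For Nr2f1 they were Trdn (RMS 0.22), Trim72 (0.249) and Srl (0.256), which encode the sarcoplasmic reticulum proteins triadin and sarcalumenin and, as Trim72, a membrane repair protein of striated muscle. Trdn was 43.1, 40.2, 44.5 and 30.9 CPM in control samples 1 to 4 and 8.70, 11.96, 13.34 and 10.1 CPM in cKO samples 1 to 4. It repeated the high controls and the low cKO samples of Nr2f1, though within the controls its highest sample was control 3 and not control 1. No gene lay within an RMS of 0.2 of Nr2f1, where 4142 did of Nr2f2 and 5829 of Nr2f6, and the median RMS to all genes was 0.841 for Nr2f1, 0.212 for Nr2f2 and 0.185 for Nr2f6. The measure is not scaled for the size of a change. These counts and medians therefore largely restate the difference by which Nr2f1 was chosen.

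For Nr2f2, Rnf8 (0.0694), for a ubiquitin ligase of the DNA damage response, and Srpk3 (0.075), for a muscle kinase, were among the closest. They shared the low values of control 4 and cKO 2. For Nr2f6 they were Tceb2 (0.0418), for elongin B, Emc10 (0.0433), for a subunit of an endoplasmic reticulum membrane complex, and Atp13a2 (0.045), for a lysosomal transporter. These shared the low value of cKO 3 and the high value of cKO 4. The 8 values of a profile come from the same libraries for every gene, so a likeness in them is a description.

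**Figure D5:**
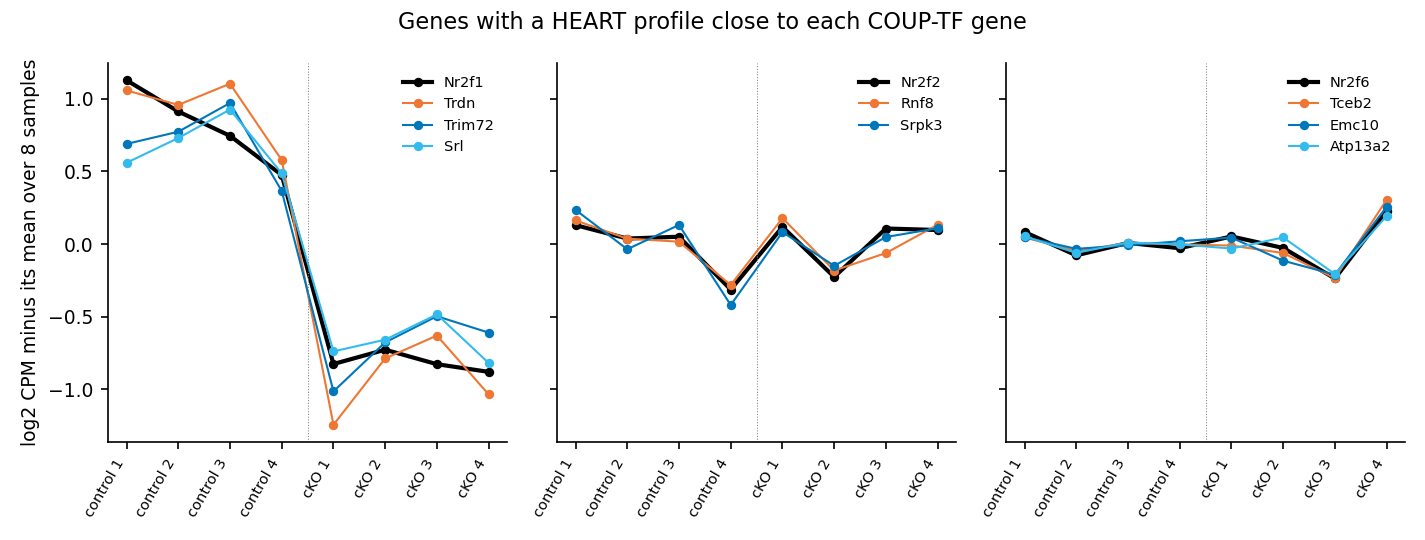
Log2 CPM minus the gene's own mean over the 8 'HEART' samples for each COUP-TF gene (black) and the genes named here as close to it, with a dotted line between the 4 control and the 4 cKO samples. The Nr2f1 set drops between the genotypes, the Nr2f2 set dips in control 4 and cKO 2, and the Nr2f6 set dips in cKO 3 and peaks in cKO 4.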

How the data were processed

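Groups were taken from the sample titles. The deposited 'HEART' table held raw counts per gene: per the submitters' processing notes 43-base paired reads went through fastp 0.20.1 (trimming), STAR 2.7.2b (alignment to mm10) and featureCounts 1.6.4 (counting) in the authors' hands. The deposited 'SHF' table held the authors' FPKM, 1 per genotype and merged locus, in a layout that the methods (STAR 2.5.0b, HTSeq, DESeq2) do not name, so the unit rests on that layout. Both tables also held the authors' own fold changes and p-values, and the 'HEART' table held normalised values per sample in 8 columns, and none of these was used. The p-values measure only the spread between single embryos.

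The test for 'HEART' counts was edgeR 4.0.16 under R 4.3.3 (filterByExpr, TMM, glmQLFit, glmQLFTest, cKO against control, no covariate) on 12694 genes, with Benjamini-Hochberg adjustment and a threshold of 0.1. Standard errors were derived from each fold change and its F statistic. The script was tested on simulated data. For 'SHF', with 1 value per genotype, no test was possible: log2 ratios of FPKM were computed at a mean of at least 1 FPKM, for loci with 1 symbol (the locus of highest mean where a symbol had several). Gene positions and lengths came from GENCODE M21 on GRCm38. The 27 rows with dates in place of symbols were kept in library sizes.

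The members and the 15 gene lists were chosen with earlier results of these data known. Named were Chd7 and the members, up to 4 called genes of smallest p per list in 'HEART', up to 3 of largest ratio past 1.5-fold in 'SHF', the 3 closest profiles and the neighbouring genes. Some genes this rule gives are not used here, and list genes given as not passing, with Rora, were added to show the rest of their list. Alternatives were DESeq2 1.42.0, limma-voom (limma 3.58.1), RLE, total counts, other filters, a threshold of 0.05, a replicate block, a random block for the prefix of the embryo codes, log2 Xist as a covariate, leaving out each sample, other gene lengths and, in 'SHF', other folds and FPKM minimums. Within a genotype no samples held identical counts, and all pairs were further apart than sampling noise (chi-square per degree of freedom 5.10 to 20.1).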

Additional observations from a re-analysis of the deposited data

Results flagged for a closer look

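In cKO 2, Nr2f2 had 67.2 CPM in 'HEART', far below the other cKO samples (84.1 to 85.4 CPM): the gap to the nearest was 0.93 of the range of the 4. Of 8 groups of 4 samples examined (Chd7 and the 3 members in both genotypes) this was the 1 that stood out. Chance alone gives about 1 in 20 for each group examined, so with 8 groups such a gap is not rare.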

How the results depend on the processing

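The log2 fold change of Nr2f1 was -1.69 to -1.61 with other scalings, filters and models, -1.64 with the replicate block, -1.76 to -1.54 when each sample was left out, and -1.95 with the Xist covariate (log2 CPM), a measure that largely follows genotype here. Nr2f2 and Nr2f6 were called under none of these settings. The count of 817 genes called became 235 with the Xist covariate, 500 to 1421 when single samples were left out (509 if control 1 was out, 510 for cKO 1, 500 for cKO 2 and 1421 for cKO 4), 549 at a threshold of 0.05, 982 with DESeq2 and 917 with the replicate block. Of the 817, 446 were higher and 371 lower, and with total counts 360 were higher and 478 lower. Same-numbered samples deviated together in only 1 of 4 pairs (r = 0.08, 0.05, 0.20 and -0.08), so the numbers were not taken to pair the samples. Samples numbered 3 (r = 0.20) and those numbered 4 (r = -0.08) did share an embryo code prefix across genotypes. Of the genes with a call named beside the members, the Xist covariate ended those of Rxrg (adjusted p = 0.105), Rarb (0.154), Esr1 (0.593), Rora (0.325), Crabp2 (0.427), Cav1 (0.381), Kcna5 (0.507), Pln (0.258), Nrp1 (0.255), Dll4 (0.252), Actn2 (0.65), Prrx1 (0.114) and Twist1 (0.129), while Zfpm2, Kcnj3, Alx1, Pdgfra and Krt19 passed in all 17 settings. The cause was not tested. With the longest transcript as length, the control 'HEART' levels were 9.15 (Nr2f1), 18.5 (Nr2f2) and 25.8 (Nr2f6) CPM per kilobase, in the same order. In 'SHF', 216 genes past 1.5-fold became 79 at 2-fold, 54 at a mean of at least 5 FPKM and 2248 with no minimum. Depth is unknown there.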
